A study of Mus musculus with 6 samples.

Results

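The genes described here are 9 that mark B cells and the plasma cells they become, measured in whole lung. They were chosen by name, as every probe set that the platform annotation gives the single symbol Cd79a, Cd79b, Ms4a1, Cd22, Blk, Pax5, Pou2af1, Jchain or Mzb1. That rule found 12 of the 45037 probe sets that are not controls, for 9 of 18193 genes with a symbol of their own on the array. Of the 12, 11 were tested among 27022 probe sets that passed a filter on dim signal, and all 9 genes kept at least 1 tested probe set. The study asked how basal gene expression differs between 2 genotypes, in lung RNA from adult female mice with 3 arrays each. One group held (AKR/J x FVB/NJ)F1 mice (AKR_F1) and the other (DBA/2J x FVB/NJ)F1 mice (DBA_F1), so every mouse had 1 inbred FVB/NJ parent and the groups differ in the other parent. The animals carried no transgene or treatment named in the labels beyond Avertin anaesthesia at collection, and no label states that the arrays of a group come from separate animals. The p-values below therefore measure the spread between these samples, which may be technical.

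A B cell reads antigen through membrane immunoglobulin, which cannot signal by itself and is paired with the Cd79a and Cd79b chains, whose tails are phosphorylated by Src-family kinases such as Blk and then bind Syk. Pax5 holds cells in the B lineage, and Pou2af1 is a coactivator that joins octamer-binding proteins on immunoglobulin and other B cell promoters. When a B cell becomes a plasma cell it loses Pax5 and surface markers such as Ms4a1, and makes large amounts of secreted antibody with the help of endoplasmic reticulum proteins such as Mzb1. The J chain, encoded by Jchain, links IgA and IgM into polymers that the epithelial receptor Pigr can carry across the airway lining. In lung, B cells lie in the tissue and its vessels and in lymphoid clusters near the airways.

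RefSeq promoters (GRCm38.p6, from 250 bases before to 50 after the gene's start) were found for 5 of the 9 genes, which were Cd79a, Cd22, Pax5, Pou2af1 and Jchain. Cd79a, Cd22 and Jchain are shown, since Cd79a and Cd22 stand for the B cell genes and Jchain had another profile over the arrays. The reference is C57BL/6J, so the alleles of AKR/J, DBA/2J and FVB/NJ may differ from it. Capitals mark matches to the Ets-type core GGAAGT (either strand) or to CCCNNGGG, the palindrome bound by early B cell factor proteins.
Cd79a, chr7:24897247-24897546, plus strand: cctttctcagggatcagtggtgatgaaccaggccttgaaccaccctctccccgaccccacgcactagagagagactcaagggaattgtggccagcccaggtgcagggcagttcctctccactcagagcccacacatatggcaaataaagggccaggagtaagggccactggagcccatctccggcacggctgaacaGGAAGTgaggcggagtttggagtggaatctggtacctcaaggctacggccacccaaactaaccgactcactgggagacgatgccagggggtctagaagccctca
Cd22, chr7:30878979-30879278, minus strand: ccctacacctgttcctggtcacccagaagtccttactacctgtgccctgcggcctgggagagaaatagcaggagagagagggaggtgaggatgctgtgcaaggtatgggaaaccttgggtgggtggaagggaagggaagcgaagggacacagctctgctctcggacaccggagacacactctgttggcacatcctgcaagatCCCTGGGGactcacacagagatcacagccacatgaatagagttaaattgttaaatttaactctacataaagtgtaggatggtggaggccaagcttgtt
Jchain, chr5:88527848-88528147, minus strand: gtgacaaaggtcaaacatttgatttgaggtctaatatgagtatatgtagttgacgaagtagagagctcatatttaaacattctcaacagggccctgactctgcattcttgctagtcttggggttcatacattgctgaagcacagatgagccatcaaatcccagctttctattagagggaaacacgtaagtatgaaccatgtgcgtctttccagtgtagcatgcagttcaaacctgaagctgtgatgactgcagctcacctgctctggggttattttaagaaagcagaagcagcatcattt
The Cd79a match begins 54 bases before the start and the Cd22 match 48 bases before it. GGAAGT is in 23.8% and CCCNNGGG in 13.7% of the 32851 promoters of this length in the table. The octamer ATGCAAAT, searched on both strands, is in 1.74% of them and in 0 of the 5 member promoters, and TATAAA on the gene's strand is in 8.32% and also in 0 of the 5. No GGAAGT or CCCNNGGG lies in the windows of Jchain, Pax5 or Pou2af1. These matches overlap no other and are descriptions of letters only. Exact matches alone were searched for, so a binding site that departs from these letters is not marked.

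The B cell and plasma cell genes were not called different between the crosses. Of the 11 tested member probe sets 0 were called by limma at an adjusted p under 0.05, against 2.62% of all tested probe sets (707 of 27022; 1.57% higher in AKR_F1 and 1.05% higher in DBA_F1). Likewise 0 had an unadjusted p under 0.05, against 18.4% of all. Adjusted p ran from 0.523 to 0.983. In 0 of the 11 did the 3 AKR_F1 arrays lie apart from the 3 DBA_F1 arrays, as they did in 23.6% of all tested probe sets (14.6% higher in AKR_F1 and 9.02% higher in DBA_F1). The differences, AKR_F1 minus DBA_F1 on the log2 scale, ran from -0.28 for Jchain to 0.26 for Cd79a with a median of 0.01, beside a median of 0.02 over all tested probe sets. All 11 intervals of 95% include 0, and in this fit all 11 exclude a 2-fold difference in either direction. That of Jchain only just does, with a lower end of -0.98. In an alternative fit with array weights Jchain differed by -0.44 (SE 0.31). Intervals were not computed for the alternatives, so the exclusion is stated for this fit only. The range among the 3 AKR_F1 arrays was wider than the difference between group means for all 11 probe sets, and the range among the DBA_F1 arrays for 10. In whole lung RNA a change in the number of B cells and a change in RNA per cell cannot be told apart.

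**Figure D1:**
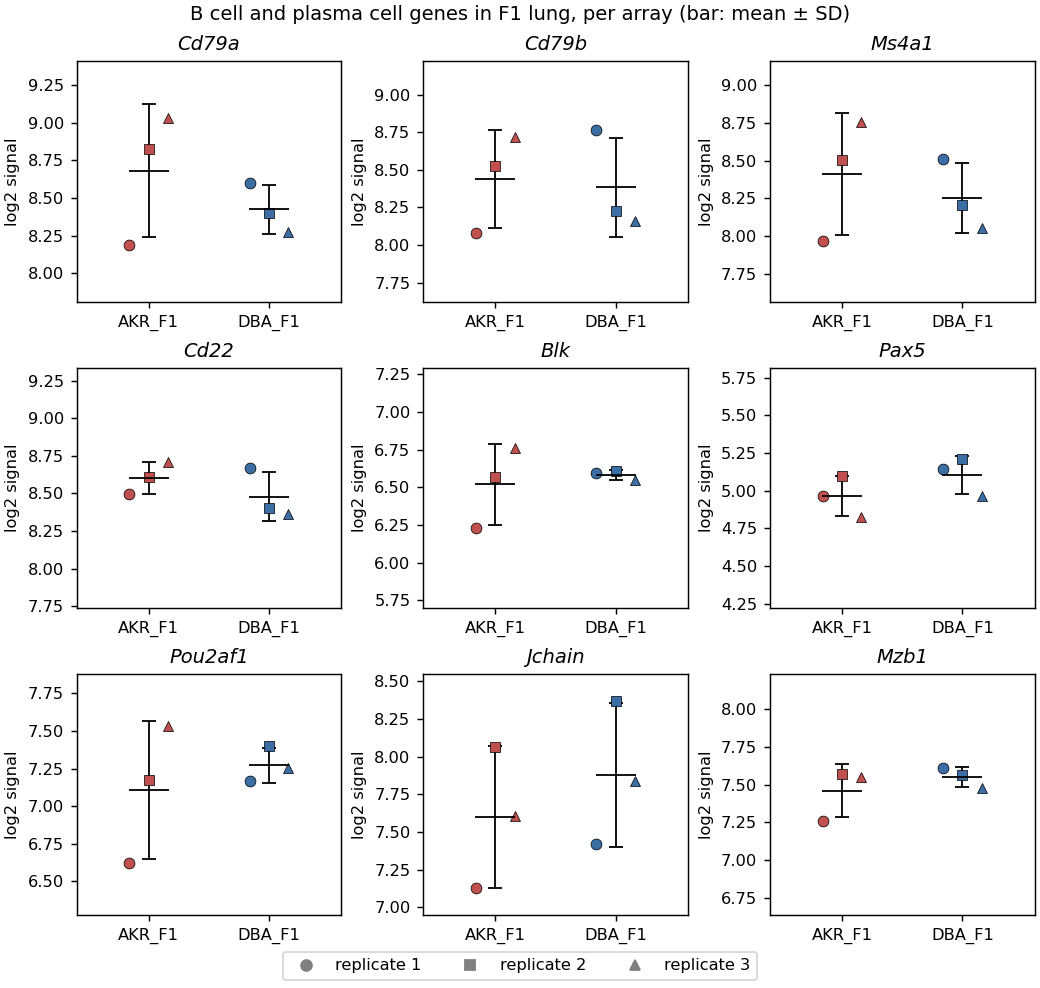
Log2 signal (vertical axis, every panel spanning the same 1.6 log2 units) of the brightest tested probe set of each gene on the AKR_F1 arrays (red, left) and the DBA_F1 arrays (blue, right), with the mean and SD of 3 arrays per group as black bars. AKR_F1 and DBA_F1 overlap in all 9 genes, and AKR_F1 replicate 1 (red circle) is the lowest array in 7 of them.

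The signalling chains of the B cell receptor were measured by 1 probe set each. Cd79a had a log2 signal of 8.19, 8.83 and 9.03 on AKR_F1 arrays 1 to 3, against 8.60, 8.40 and 8.28 on DBA_F1 arrays 1 to 3. Both the lowest and the highest of the 6 values were in AKR_F1, so the DBA_F1 arrays lay inside the AKR_F1 range. The difference was 0.26 ± 0.21 (SE), or 1.19-fold, with a 95% interval from -0.24 to 0.75 (adjusted p = 0.569). Cd79b, its partner in the receptor, had 8.08, 8.52 and 8.72 in AKR_F1, against 8.76, 8.23 and 8.16 in DBA_F1. Here the highest value was that of DBA_F1 replicate 1 and the difference was 0.06 ± 0.21 (adjusted p = 0.914).

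Ms4a1 encodes CD20, a membrane protein of mature B cells that plasma cells lack, and has 2 probe sets. The brighter had 7.97, 8.51 and 8.76 in AKR_F1, against 8.51, 8.20 and 8.05 in DBA_F1, with a difference of 0.15 ± 0.21 (interval from -0.34 to 0.64, adjusted p = 0.744). The other had 5.65, 6.52 and 6.51 in AKR_F1, against 6.33, 6.16 and 6.10 in DBA_F1, and differed by 0.03 ± 0.23. On both, AKR_F1 replicate 1 was the lowest array and AKR_F1 replicates 2 and 3 lay above DBA_F1 replicates 2 and 3.

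Cd22 is a sialic acid-binding receptor that dampens signals of the B cell receptor. Its brighter probe set had 8.49, 8.61 and 8.71 in AKR_F1, against 8.67, 8.40 and 8.37 in DBA_F1. With a range of 0.34 over the 6 arrays it had the narrowest spread of the 9 genes, and its difference of 0.12 ± 0.10 had an interval from -0.10 to 0.35 (adjusted p = 0.545). The dimmer probe set had 6.32, 6.50 and 6.79 in AKR_F1, against 6.89, 6.37 and 6.32 in DBA_F1, and differed by 0.01 ± 0.18. On this probe set DBA_F1 replicate 1 was the highest array, ahead of AKR_F1 replicate 3.

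Blk, the Src-family kinase, had 6.23, 6.57 and 6.76 in AKR_F1, against 6.59, 6.61 and 6.55 in DBA_F1. The AKR_F1 arrays (SD 0.27, n = 3) lay on both sides of the DBA_F1 arrays, which were close together (SD 0.032, n = 3). The difference was -0.06 ± 0.13 (adjusted p = 0.842).

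Pax5, the transcription factor of B cell identity, lay near the filter level of 4.72 on its tested probe set, with 4.97, 5.09 and 4.83 in AKR_F1, against 5.14, 5.21 and 4.97 in DBA_F1. The difference was -0.14 ± 0.11 with an interval from -0.39 to 0.11 (adjusted p = 0.523). The other Pax5 probe set was left out by the filter, with 3.89, 3.88 and 3.84 in AKR_F1, against 3.78, 3.63 and 3.81 in DBA_F1. On it the groups did not overlap, but its mean was higher in AKR_F1 by 0.13 where the tested probe set was lower, and the files used here give no detection call that would say whether so dim a signal lies above background.

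Pou2af1 is made by both B cells and plasma cells. It had 6.62, 7.17 and 7.53 in AKR_F1, against 7.17, 7.40 and 7.25 in DBA_F1. As with Cd79a and Blk, the AKR_F1 arrays held both ends of the range, and the difference was -0.16 ± 0.21 (interval from -0.66 to 0.34, adjusted p = 0.732).

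Jchain had the widest range of the 9 genes, 1.25 log2 units over the 6 arrays, and was the single member to pass 2-fold between its lowest and highest array. It had 7.13, 8.07 and 7.61 in AKR_F1, against 7.42, 8.37 and 7.84 in DBA_F1. Within each group replicate 2 was the highest and replicate 1 the lowest, and the SD was 0.47 in AKR_F1 and 0.48 in DBA_F1 (n = 3 each). The difference of -0.28 ± 0.30, or 1.21-fold higher in DBA_F1, had an interval from -0.98 to 0.42 (adjusted p = 0.670). Its size rested on single arrays, with -0.03 without DBA_F1 replicate 2, -0.04 without AKR_F1 replicate 1, -0.51 without AKR_F1 replicate 2 and -0.51 without DBA_F1 replicate 1. Mzb1, a chaperone-like protein of the endoplasmic reticulum in marginal zone B cells and plasma cells, had 7.26, 7.57 and 7.55 in AKR_F1, against 7.61, 7.56 and 7.48 in DBA_F1. Apart from AKR_F1 replicate 1 its values lay close together, and the difference was -0.09 ± 0.10 (interval from -0.32 to 0.13, adjusted p = 0.657).

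**Figure D2:**
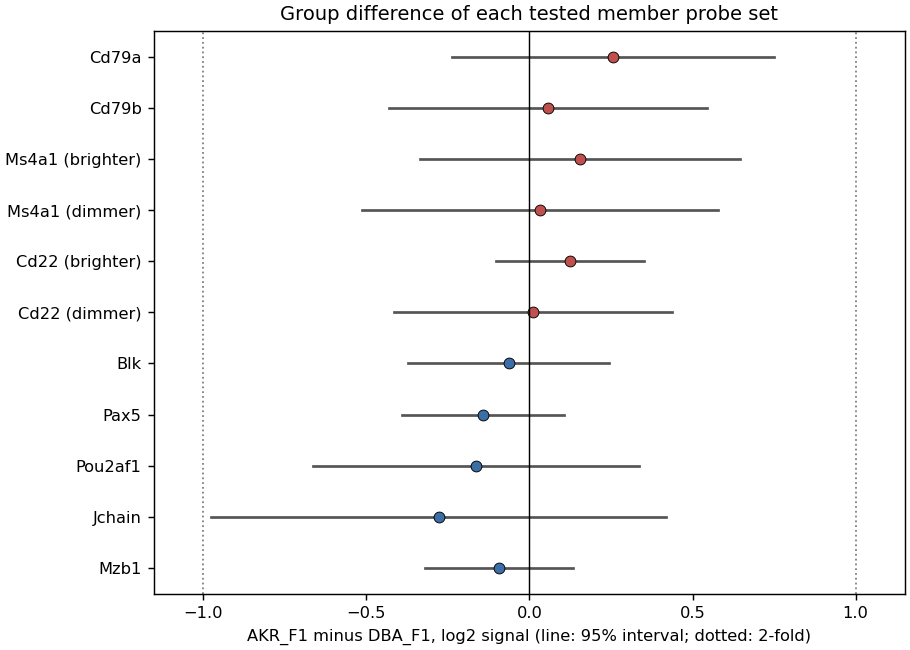
Difference in log2 signal between AKR_F1 and DBA_F1 (horizontal axis, AKR_F1 minus DBA_F1) for the 11 tested member probe sets, with moderated 95% intervals from the limma fit and dotted lines at a 2-fold difference. Points are red above 0 and blue below, every interval crosses 0, and none reaches a dotted line.

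The spread of these genes lay mostly between single arrays. By representative probe set, AKR_F1 replicate 1 was the lowest array for 7 of the 9 genes, beside 16.4% of 13202 genes tested, and AKR_F1 replicate 3 was the highest for 5 of 9, beside 13.7%. The exceptions to the low value on AKR_F1 replicate 1 were Cd22, lowest on DBA_F1 replicate 3, and Pax5, lowest on AKR_F1 replicate 3. The mean of the 7 B cell genes (all but Jchain and Mzb1), with each gene centred on its own mean, was -0.29, 0.10 and 0.25 on AKR_F1 arrays 1 to 3, against 0.12, -0.02 and -0.14 on DBA_F1 arrays 1 to 3. Its difference between groups was 0.03, and leaving out AKR_F1 replicate 1 gave 0.19 while leaving out AKR_F1 replicate 3 gave -0.08. Without AKR_F1 replicate 1 the probe sets of Cd79a (difference 0.50, unadjusted p = 0.00468, adjusted p = 0.165 by limma) and both of Ms4a1 (0.38 and 0.32, adjusted p = 0.375 and 0.261) passed an unadjusted p of 0.05. Without DBA_F1 replicate 1 the brighter probe set of Cd22 did so (0.22, unadjusted p = 0.0283, adjusted p = 0.210 by limma). Of the member probe sets 0 were called with any 1 array missing.

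Among the members, Jchain lay furthest from the mean profile of the B cell genes. Likeness was measured as the root mean square difference between profiles centred over the 6 arrays, where smaller is more alike. From the mean of the 7 B cell genes, Blk differed by 0.082, Mzb1 by 0.10, Ms4a1 by 0.11, Cd22 by 0.12, Cd79b by 0.13, Cd79a by 0.15, Pou2af1 by 0.19, Pax5 by 0.23 and Jchain by 0.40. All but Jchain and Mzb1 are part of that mean, and genes of narrow range have small values by construction. Pax5, with a range of 0.38, is such a gene, and its profile also departed from that mean. It was lowest on AKR_F1 replicate 3 (-0.21 relative to its own mean) and, like Jchain, highest on DBA_F1 replicate 2 (0.17). Cd79a was at 0.48 on AKR_F1 replicate 3 relative to its own mean, where Jchain was at -0.13, and on DBA_F1 replicate 2 Cd79a was at -0.15 where Jchain was at 0.63.

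**Figure D3:**
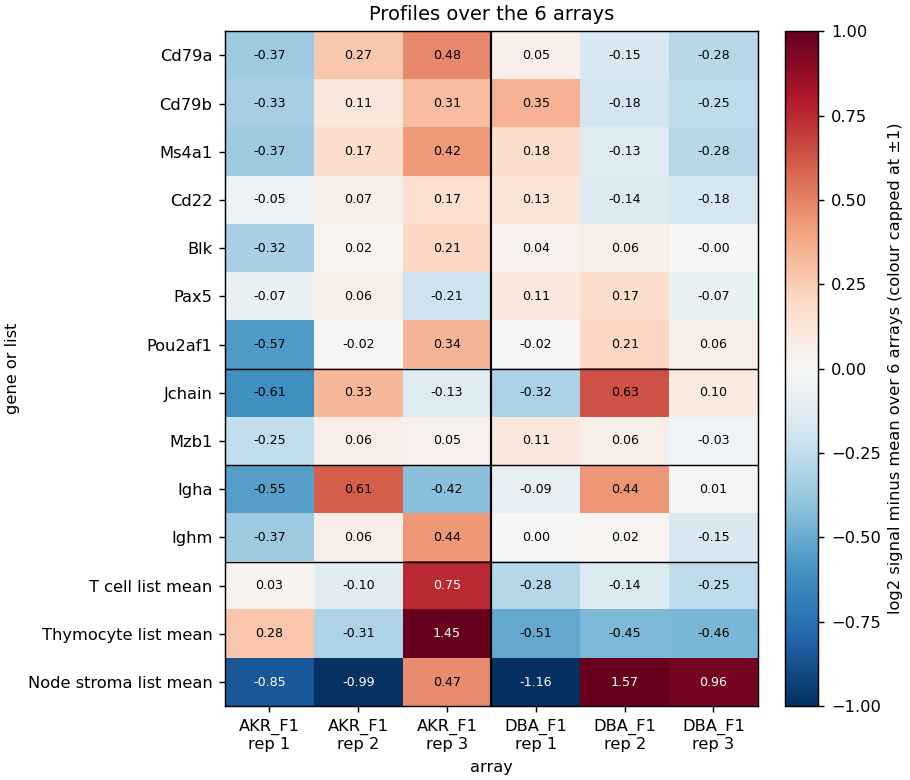
Log2 signal on each array (columns, AKR_F1 left and DBA_F1 right of the line) minus the mean over all 6 arrays, for the 9 members, the heavy chain genes Igha and Ighm, and the means of 3 lists of other cells; colour is capped at 1 in either direction. The B cell genes are below their own means on AKR_F1 replicate 1. On AKR_F1 replicate 3 they are above them, apart from Pax5, which is lowest there (-0.21). Jchain and Igha are high on replicate 2 of both groups.

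Immunoglobulin heavy chain genes did not all share 1 profile. Igha, the constant region of IgA, had 9.70, 10.85 and 9.83 in AKR_F1, against 10.16, 10.69 and 10.26 in DBA_F1 on its brightest probe set. Replicate 2 was the highest array in both groups, as for Jchain, and over 13193 genes outside the members the profile of Igha was the second closest to that of Jchain (0.21). The group difference of Igha was -0.24 ± 0.30 (adjusted p = 0.719), and its other probe sets had -0.20 and -0.23. Ighm, the constant region of IgM, which resting B cells carry on the surface, had 9.64, 10.07 and 10.44 in AKR_F1, against 10.01, 10.02 and 9.85 in DBA_F1. Its profile was the 43rd closest of 13193 to the mean of the B cell genes (0.098) and the 4318th closest to Jchain (0.41). Those ranks are for its brightest probe set, and of the other 6 tested Ighm probe sets 3 were likewise highest on AKR_F1 replicate 3 and 3 on DBA_F1 replicate 2, as Jchain was. A second bright one had 9.58, 9.86 and 10.39 in AKR_F1, against 9.60, 10.26 and 10.12 in DBA_F1. A dimmer one had 5.43, 5.87 and 5.89 in AKR_F1, against 5.28, 6.72 and 5.37 in DBA_F1. Ighg3, an IgG heavy chain, was close to neither profile, at rank 12500 from the mean of the B cell genes (0.36) and 7648 from Jchain (0.44). Of 43 immunoglobulin probe sets with 1 symbol 23 were tested, with a median difference of -0.05. By limma 0 of them were called, and 3 had an unadjusted p under 0.05, beside 18.4% of all tested probe sets. Immunoglobulin segments share much of their sequence, so which segment such a probe set reads is uncertain.

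The 5 genes closest to the mean B cell profile, out of 13193, were Srpk3 (0.047), the blood cell kinase Map4k1 (0.050), Slco4a1 (0.061), perforin (Prf1, 0.062) and Rragd (0.064). Map4k1 had 6.29, 6.67 and 6.90 in AKR_F1, against 6.67, 6.46 and 6.41 in DBA_F1, the same low AKR_F1 replicate 1 and high AKR_F1 replicate 3. Prf1, a cytotoxic granule protein of T cells and natural killer cells, had 6.47, 6.79 and 7.06 in AKR_F1, against 6.94, 6.65 and 6.69 in DBA_F1. Closest to Jchain were Adamtsl2 (0.20), Igha, the lectin Clec10a (0.23), the integrin subunit Itgb3 (0.24) and glutamine synthetase (Glul, 0.24). Closest to Mzb1 were Zcchc7, Zgrf1, 1700008J07Rik, Ppip5k2 and Cfap43, at 0.032 to 0.042. With 6 arrays such likeness describes these libraries and ranks many unrelated genes together.

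Other genes with a role in B cells, plasma cells or IgA transport, from 6 lists, were seldom called. These B lineage lists also hold genes that other cells make, such as Pigr of epithelium and Manf. The counts over all 75 are therefore not for B lineage cells alone. Of 89 listed genes 75 had a tested probe set, and 2 were called by limma, 1 in each direction, against 2.48% of 13202 genes (327; 1.42% in favour of AKR_F1 and 1.06% of DBA_F1), with 15 of the 75 at an unadjusted p under 0.05 against 19.1% of all. The median difference of the 75 was 0.09, beside 0.02 over all genes, and 57 (76.0%) had the higher mean in AKR_F1, beside 55.1% of all. AKR_F1 replicate 3 was the highest array for 37 of them (49.3%, beside 13.7% of all genes). Without that array the mean difference of the signalling list went from 0.07 to -0.04, and that of inhibitory receptors from 0.10 to 0.0007. It went from 0.03 to -0.0037 for transcription factors, from 0.16 to 0.06 for surface genes and from 0.18 to 0.10 for IgA transport. For plasma cell and secretory pathway genes it went from 0.11 to 0.13.

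**Figure D4:**
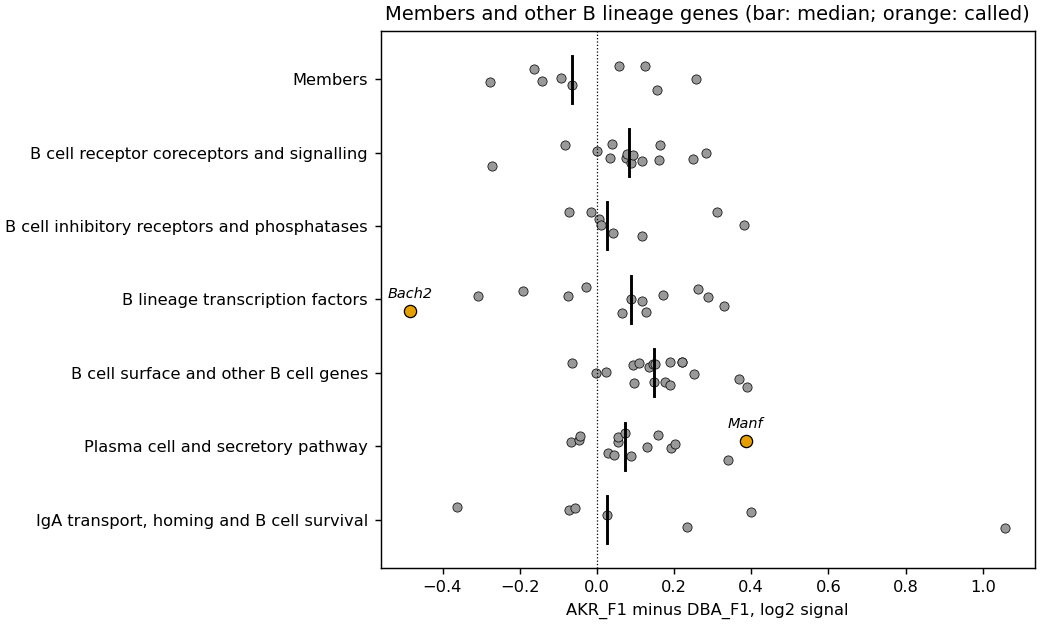
Difference in log2 signal (AKR_F1 minus DBA_F1, horizontal axis) for the 9 members and the tested genes of 6 other B lineage lists, 1 point per gene by its brightest tested probe set; vertical scatter within a row has no meaning. Black bars are medians, and the 2 called genes, Bach2 and Manf, are orange and labelled.

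Among coreceptors and signalling proteins of the B cell receptor, 0 of 14 tested genes were called (1 at an unadjusted p under 0.05, Pik3ap1), with a median difference of 0.08. The largest differences were those of Syk, the kinase that docks on phosphorylated Cd79 chains (0.28 ± 0.12, adjusted p = 0.283), the adaptor Blnk (-0.27 ± 0.25) and the adaptor Pik3ap1 (0.25 ± 0.065, adjusted p = 0.113). Blnk had 7.13, 7.49 and 8.18 in AKR_F1, against 7.99, 7.93 and 7.70 in DBA_F1, again with both extremes in AKR_F1. Among inhibitory receptors and phosphatases 0 of 8 were called, 0 of them at an unadjusted p under 0.05, with a median of 0.03. The largest differences there were those of Cd5 (0.38 ± 0.17), which T cells also make, of Siglecg, a B cell lectin related to Cd22 (0.31 ± 0.16), and of Cd72 (0.12 ± 0.17).

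Of 13 lineage transcription factors 1 was called (4 at an unadjusted p under 0.05), with a median of 0.09. Bach2, a repressor that delays plasma cell differentiation, had 7.27, 7.38 and 7.47 in AKR_F1, against 7.92, 7.94 and 7.71 in DBA_F1. It fell by 0.48 on the log2 scale in AKR_F1 (SE 0.085, 1.40-fold higher in DBA_F1, adjusted p = 0.0367). The other probe sets of Bach2 differed by 0.16 (adjusted p = 0.322) and -0.02 (adjusted p = 0.956), and the mean of the 3 by -0.11 (adjusted p = 0.312). The call was also lost without AKR_F1 replicate 1 (0.140), AKR_F1 replicate 2 (0.137), DBA_F1 replicate 1 (0.0869) or DBA_F1 replicate 2 (0.150). Bach2 is also expressed in T cells. Ets1, a transcription factor of T and B cells, was not called on its brightest probe set, which had 10.76, 10.71 and 10.72 in AKR_F1, against 10.54, 10.29 and 10.58 in DBA_F1 (difference 0.26 ± 0.077, adjusted p = 0.144). Of its 4 probe sets 1 was called (0.43 ± 0.078, adjusted p = 0.0415), and on all 4 the AKR_F1 arrays lay above the DBA_F1 arrays, with differences of 0.26 to 0.43. Ets1 was named after its values were seen.

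Of 15 plasma cell and secretory pathway genes 1 was called. Manf, a stress-induced protein of the endoplasmic reticulum that many cell types make, had 10.22, 10.35 and 10.07 in AKR_F1, against 9.87, 9.76 and 9.84 in DBA_F1. It rose by 0.39 (SE 0.074, 1.31-fold, adjusted p = 0.0487) and lost the call without any 1 array other than AKR_F1 replicate 3 (adjusted p of 0.0820 to 0.186). The median of the 15 was 0.07, and 3 had an unadjusted p under 0.05. The plasma cell receptor Tnfrsf17 had a probe set but did not pass the filter.

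Of 18 B cell surface and other B cell genes 0 were called (4 at an unadjusted p under 0.05), with a median of 0.15. The largest differences were those of the follicle-homing receptor Cxcr5 (0.39 ± 0.14, adjusted p = 0.216), the survival factor receptor Tnfrsf13b (0.37 ± 0.18) and Ralgps2 (0.25 ± 0.097). AKR_F1 replicate 3 was the highest array for 13 of the 18. Of 7 genes of IgA transport, homing and B cell survival 0 were called (3 at an unadjusted p under 0.05). Pigr, which carries J chain-linked IgA into the airway, had 7.47, 7.70 and 7.52 in AKR_F1, against 8.14, 7.94 and 7.69 in DBA_F1, a difference of -0.36 ± 0.12 (adjusted p = 0.181). The chemokine Cxcl12 differed by 0.40 ± 0.14 on its brightest probe set (adjusted p = 0.198 by limma). Its other tested probe sets disagreed in sign, with 0.19 (adjusted p = 0.399) and -0.34 (adjusted p = 0.306). The homing receptor Ccr9 differed by 1.06 ± 0.55 (adjusted p = 0.359), with 5.76, 4.99 and 7.44 in AKR_F1, against 5.11, 4.87 and 5.04 in DBA_F1, so that its size came from AKR_F1 replicate 3. Thymocytes also make Ccr9.

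Markers of other cells were uneven between the arrays. AKR_F1 replicate 3, where most B cell genes were highest, was also high in T cell and thymocyte genes. The mean log2 signal of 12 T cell genes was 7.12, 6.99 and 7.85 in AKR_F1, against 6.82, 6.96 and 6.84 in DBA_F1. Their summed linear signal was 1795 to 3095 in AKR_F1 and 1643 to 1790 in DBA_F1. For the 3 tested of 9 thymocyte and thymus stroma genes, the sum was 109 to 410 in AKR_F1 and 96.6 to 98.9 in DBA_F1. Dntt, the polymerase that adds bases at antigen receptor junctions in immature lymphocytes, had 5.86, 4.79 and 7.83 in AKR_F1, against 4.38, 4.58 and 4.59 in DBA_F1. Its DBA_F1 values lay below the filter level of 4.72, so it was tested only because of its AKR_F1 signal, and the other 6 listed genes of this kind, among them Rag1 and Ptcra, did not pass the filter. The sum and the count therefore describe 3 selected genes. Of the 12 T cell genes 0 were called (4 at an unadjusted p under 0.05), and of the 3 thymocyte genes 0 were called (2). Among 6 natural killer cell genes, Prf1 with them, the sum was 1236 to 1802 in AKR_F1 and 1507 to 1794 in DBA_F1, lowest like the B cell genes on AKR_F1 replicate 1, and 0 were called (2 at an unadjusted p under 0.05). The part of these cells in the values of the B cell genes was not tested.

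Genes of lymph node vessels and follicles had a partly different pattern over the arrays. Glycam1, made by the high endothelial vessels of lymph nodes, had 3.99, 3.55 and 7.58 in AKR_F1, against 3.53, 9.70 and 8.21 in DBA_F1. The B cell attractant Cxcl13 had 6.88, 7.15 and 7.18 in AKR_F1, against 6.39, 8.50 and 8.28 in DBA_F1. On AKR_F1 replicate 3, where most B cell genes were highest, Glycam1 was also high (7.58, against its mean of 6.09 over all arrays). Cxcl13 was not, as its 7.18 there lay below its own mean of 7.40. Fut7, the other tested gene of this list, was at 5.38 there, against its mean of 5.24. The mean of the tested genes of this list, each centred on its own mean, was 0.47 there. That value came mostly from Glycam1, whose values of 3.99 and 3.55 in AKR_F1 and 3.53 in DBA_F1 lay below the filter level. Glycam1 and Cxcl13 were both high on DBA_F1 replicates 2 and 3, where Cd79a, Cd79b, Ms4a1 and Cd22 were below their own means. The other B cell genes differed from these on DBA_F1 replicate 2, where Blk (0.06), Pax5 (0.17) and Pou2af1 (0.21) were above their own means, and Pou2af1 was also above it on DBA_F1 replicate 3 (0.06). The sum of the 3 tested of 8 genes of this list was 173 to 378 in AKR_F1 and 136 to 1234 in DBA_F1, and 0 of the 3 were called (0 at an unadjusted p under 0.05).

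Across the whole series, Pearson correlations between arrays over tested probe sets lay between 0.965 and 0.995, and AKR_F1 replicate 3 correlated more with the DBA_F1 arrays than with AKR_F1 replicates 1 and 2. Squamous epithelial and skeletal muscle transcripts were low on AKR_F1 replicates 1 and 2 and high on the other 4 arrays. The sum of 8 squamous genes ran from 242 to 14330 in AKR_F1 and from 11140 to 17510 in DBA_F1. The sum of 8 adipose genes ran from 1561 to 2792 in AKR_F1 and from 4462 to 11271 in DBA_F1, with no overlap, and 6 of the 8 were called lower in AKR_F1. The sum of 7 lung epithelial genes, among them surfactant protein C, ran from 82850 to 86200 in AKR_F1 and from 77676 to 81886 in DBA_F1. These high sums show the labelled tissue on all arrays, but they too did not overlap between the groups. Of the 7 genes 1 was called by limma, higher in AKR_F1, beside 2.48% of all genes. At an unadjusted p under 0.05 there were 4, beside 19.1% of all genes. The part of these transcripts in the members' values was not tested.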

How the data were processed

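Per the labels, biotin-labelled target made from total lung RNA was hybridised to Affymetrix 3' arrays. The deposited values are log2 signals, 1 per probe set and array, with array medians of 5.46 to 5.49. Both MAS5 and RMA are named in the submitters' processing notes, which leave unsaid which made the table, so its scale was read from the values and no detection calls were used. Gene symbols came from the platform annotation, and chromosomes and promoters from RefSeq tables of GRCm38.p6. After 64 control probe sets were left out, the 40% of probe sets with the lowest mean over all 6 arrays (log2 4.72 or less) were dropped. Groups were compared with limma 3.58.1 in R 4.3.3 (lmFit with group as its single term, then two-sided tests from eBayes with an intensity trend), with Benjamini-Hochberg adjustment over all 27022 tested probe sets and calls at an adjusted p under 0.05. A difference is the AKR_F1 mean minus the DBA_F1 mean and SE its moderated standard error, and intervals are 95% and unadjusted. A gene is represented by its tested probe set with the highest mean. The number of arrays limits the precision. The fit was also run on simulated data with independent noise for each probe set and array. Such data hold no effect shared over a whole array, so they do not test how the fit handles one.

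The members and lists were chosen with earlier results of these data known. Named are all 9 members, the called genes or otherwise the 3 largest differences of each B lineage list, the 3 brightest immunoglobulin probe sets, the 5 genes closest to each profile, and up to 4 genes of a list of other cells. Pik3ap1 by its p, Tnfrsf17, Ets1, Ighg3, the further Ighm probe sets, and the immunoglobulin segments of the closing section were named after their values were seen. Listed genes without a probe set of 1 symbol were not analysed here. Alternatives were other normalizations, filters and variance models, array weights, each array left out in turn, a block for replicate number, and averaging probe sets.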

Additional observations from a re-analysis of the deposited data

How the results depend on the processing

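No member probe set was called by limma under any alternative, and the lowest adjusted p was 0.1065, for Jchain with the replicate number as a block (difference -0.28, unadjusted p = 0.00481). Of 134 values of members under alternatives 127 kept their direction and 7 turned it, all in fits that left out 1 array. In those fits Cd79b ran from -0.081 to 0.25, Ms4a1 from -0.018 to 0.38, Blk from -0.18 to 0.081, Pou2af1 from -0.38 to 0.079 and Mzb1 from -0.15 to 0.0076, while Cd79a (0.081 to 0.50), Cd22 (0.067 to 0.22), Pax5 (-0.21 to -0.074) and Jchain (-0.51 to -0.030) kept their sign. The signs of Blk, Pou2af1 and Mzb1 turned without AKR_F1 replicate 1, those of Cd79b and Ms4a1 without AKR_F1 replicate 3, and that of Cd79b also without DBA_F1 replicates 2 or 3. The 707 called probe sets of the whole table became 1198 with array weights and 198 to 1171 with 1 array left out (the fewest, 198 and 199, when AKR_F1 replicate 1 or 2 was missing, 249 when it was DBA_F1 replicate 2, and the most when it was AKR_F1 replicate 3). Of the 707, 424 were higher and 283 lower in AKR_F1, but this balance turned to 561 and 610 in the fit lacking AKR_F1 replicate 3 and to 284 and 429 in that lacking DBA_F1 replicate 3. The 2 called genes of the B lineage lists became 1 with median centring, without a filter, with the lowest 60% left out or without a trend. They became 0 with the replicate block or the mean of probe sets, and 0 to 2 with 1 array left out. Deviations from the group mean had correlations of 0.31, -0.23 and -0.05 between same-numbered arrays, and of -0.28 to 0.31 between differently numbered ones. Deviations from a mean of 3 arrays are tied to each other, so these values cannot settle whether the numbers pair the samples. The block gave 539 called probe sets, and the SE of Jchain was 0.061 with it, against 0.30 without. The cause of these changes was not tested. Signal near background limits what Pax5 shows.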

Other observations

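Of the 23 tested immunoglobulin probe sets 3, all of light chains, had an unadjusted p under 0.05 in the limma fit. The share over all tested probe sets was 18.4%, and 0 of the 23 were called. An Igk probe set had 6.73, 6.85 and 7.20 in AKR_F1, against 7.53, 7.41 and 7.37 in DBA_F1, with a difference of -0.51 ± 0.12 (SE) and an adjusted p of 0.0914. Igkv6-14, a kappa variable segment, had 6.05, 6.20 and 6.25 in AKR_F1, against 5.90, 5.81 and 5.73 in DBA_F1, with a difference of 0.35 ± 0.085 and the same adjusted p. In both the groups did not overlap, and the signs are opposite. They are the 2 of the 23 without overlap, beside 23.6% of all tested probe sets. Both counts lie below the share over all. The other tested Igk probe set differed by 0.27 ± 0.14. The third, a dim kappa variable segment, had 4.15, 4.69 and 4.57 in AKR_F1, against 4.64, 6.02 and 5.66 in DBA_F1, with a difference of -0.97 ± 0.34 (adjusted p = 0.204), and its AKR_F1 values lay below the filter level of 4.72. These probe sets were named after their values were seen.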
